A study of Mus musculus with 6 samples.

Results

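MicroRNA-22 (miR-22) is made from 1 hairpin precursor, and both of its mature strands, miR-22-3p and miR-22-5p, were measured by small-RNA sequencing of the mouse thymus. The strands were taken by their names, mmu-miR-22-3p and mmu-miR-22-5p, from the deposited count table, which gave 2 of its 1390 miRNAs. Control animals were C57BL wild-type mice aged 5 weeks that were not irradiated. Irradiated animals were mice of the same strain and age exposed to X-rays (dose 6 Gy, dose rate 800 cGy/min, distance 40 cm), and all thymuses were collected after 24 h. Each group had n = 3 mice and 1 library per mouse. The samples were whole thymus, so that in every result below a change in the mix of cells and a change in RNA per cell cannot be told apart. Levels are relative to the other miRNAs of a library, so a higher level need not mean more of a miRNA per cell or per thymus.

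A miRNA hairpin is cut by Dicer into a short duplex, and usually 1 of its strands is kept in an Argonaute protein, where it guides the repression of messenger RNAs that match its seed (bases 2 to 8). The other strand is mostly degraded, and its remaining level gives a second readout of the same hairpin. MiR-22 is made in many tissues, is abundant in heart and skeletal muscle, and is known for repressing Tet2, an enzyme of DNA demethylation. It has been linked to the tumour suppressor p53, the transcription factor that ionizing radiation activates and that drives the death of irradiated thymocytes.

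The sequences are shown because the 2 strands carry different seeds and are counted separately. They are written 5′ to 3′ with the seed in capitals, and match RefSeq entries on GRCm38.p6.
miR-22-3p: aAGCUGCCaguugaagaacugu
miR-22-5p: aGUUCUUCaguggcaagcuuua

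The hairpin gene Mir22 lies on chromosome 11 at 75463716 to 75463810 (plus strand, GRCm38.p6), and the genome build of the deposited counts is not given in the sources used here. In GENCODE M21 it lies inside exon 2 of the noncoding host gene Mir22hg (gene at 75461539 to 75466676), and the same bases fall in exon 2 of a noncoding transcript of Tlcd2. MiR-22-5p maps to 75463734 to 75463755 and miR-22-3p to 75463772 to 75463793. In the hairpin of 95 bases, shown with both mature strands in capitals, a stretch of 16 bases separates them.
Mir22 hairpin: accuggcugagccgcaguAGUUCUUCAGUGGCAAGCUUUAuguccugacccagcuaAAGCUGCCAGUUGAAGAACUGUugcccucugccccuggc

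Neither strand shares its seed with any of the other 1389 rows of the table. No other row came within 3 mismatches of either strand over at least 18 bases, in sense or antisense. The longest stretch in which miR-22-3p matched the reverse complement of miR-22-5p was 9 bases. By these sequences, reads of the 2 strands were not interchangeable with each other or with another listed miRNA.

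Library totals ranged from 7730641 to 9287017 counts. Levels below are CPM (counts per 1000000 counts of the library), corrected by trimmed-mean (TMM) factors. These ranged from 0.823 in control replicate 1 to 1.39 in control replicate 2. A count of 0 would allow a level of up to 3 counts, or 0.323 to 0.388 CPM before TMM scaling, which is far below both strands. A summed list of 4 striated-muscle miRNAs set irradiated replicates 2 and 3 (20128 and 13397 CPM) apart from irradiated replicate 1 (603 CPM) and from the control libraries (203 to 481 CPM).

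MiR-22-3p was the abundant strand and was moderately above control in all 3 irradiated libraries, without passing the test. In control replicates 1, 2 and 3 its level was 1892, 1804 and 1815 CPM. In irradiated replicates 1, 2 and 3 it was 2911, 2820 and 2344 CPM. The control mice lay close together and every irradiated mouse lay above them, with replicate 3 the lowest of the irradiated group. The group means were 1837 ± 47.9 and 2692 ± 305 CPM (SD, n = 3 each). The log2 fold change of irradiated over control was 0.55 ± 0.22 (SE), a 1.47-fold difference with a 95% interval of 1.04 to 2.06, and the edgeR adjusted p was 0.0509. This p lay just above the threshold of 0.05, and 8 of 16 other ways of processing the counts put it below. Of the 6 fits that left out 1 library, only 1 passed. It was the fit without irradiated replicate 2, with a log2 fold change of 0.72 and an edgeR adjusted p of 0.0228. Without irradiated replicate 3 the log2 fold change was 0.71 and the edgeR adjusted p 0.0682.

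MiR-22-5p, the scarce strand, rose. It was at 23.4, 19.8 and 25.2 CPM in control replicates 1, 2 and 3. The irradiated mice had 53.2 (replicate 1), 65.4 (replicate 2) and 53.4 CPM (replicate 3), so that the lowest irradiated mouse had more than the highest control mouse. The group means were 22.8 ± 2.75 and 57.4 ± 6.99 CPM (SD, n = 3 each). The log2 fold change was 1.33 ± 0.26 (SE), a 2.52-fold rise with a 95% interval of 1.68 to 3.78 and an edgeR adjusted p of 0.0018. It passed in all 16 other ways of processing the counts, with log2 fold changes of 1.08 to 1.76.

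**Figure D1:**
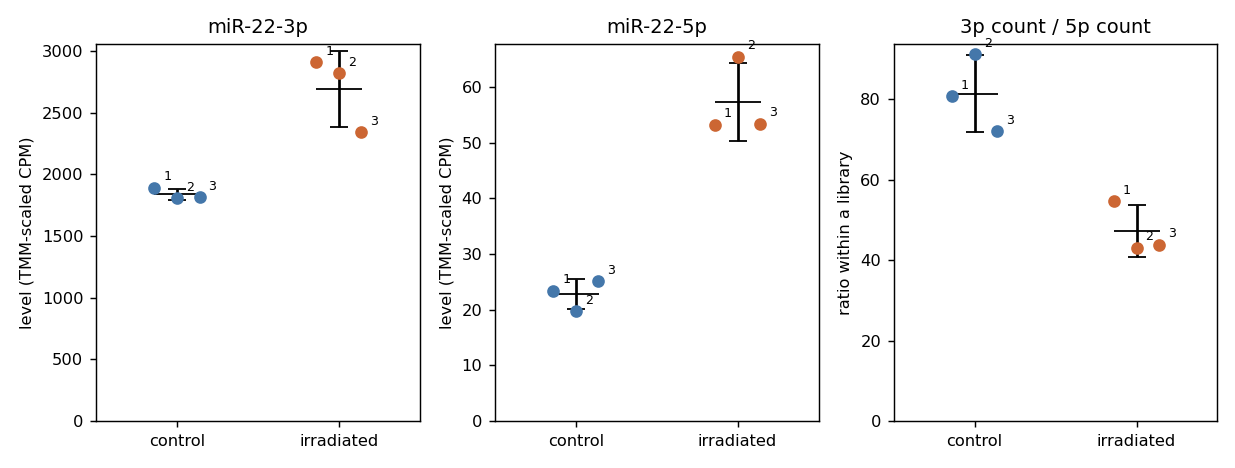
Levels of miR-22-3p and miR-22-5p (TMM-scaled CPM) and the ratio of their counts in each library, with replicate numbers beside the points, the group mean as a horizontal line and the SD as the error bar. The irradiated mice lie above the control mice for both strands, and below them for the ratio, with control ratios of 72.1 to 91.2 and irradiated ratios of 43.1 to 54.7.

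One of the 2 strands was thus called higher, in a comparison in which 61.3% of the 519 tested miRNAs were called, 27.7% higher and 33.5% lower. Both strands had irradiated libraries above all controls, which held for 32.0% of the tested miRNAs, while 68.6% had groups that did not overlap in either direction. Changes larger in size than that of miR-22-3p were found for 404 of the 519 miRNAs, and larger than that of miR-22-5p for 238.

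The 2 strands were also set against miRNAs of similar level. Within 2-fold of the mean level of miR-22-3p there were 32 other tested miRNAs, of which 13 were called higher, 14 lower and 5 did not pass. The SE of miR-22-3p (0.22) was below their median (0.28). Of the 32, 27 had a larger change in size and 13 had a log2 fold change above that of miR-22-3p. Around miR-22-5p there were 88, of which 33 were called higher, 34 lower and 21 did not pass. Of those 88, 50 had a larger change in size and 26 had a log2 fold change above that of miR-22-5p.

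**Figure D2:**
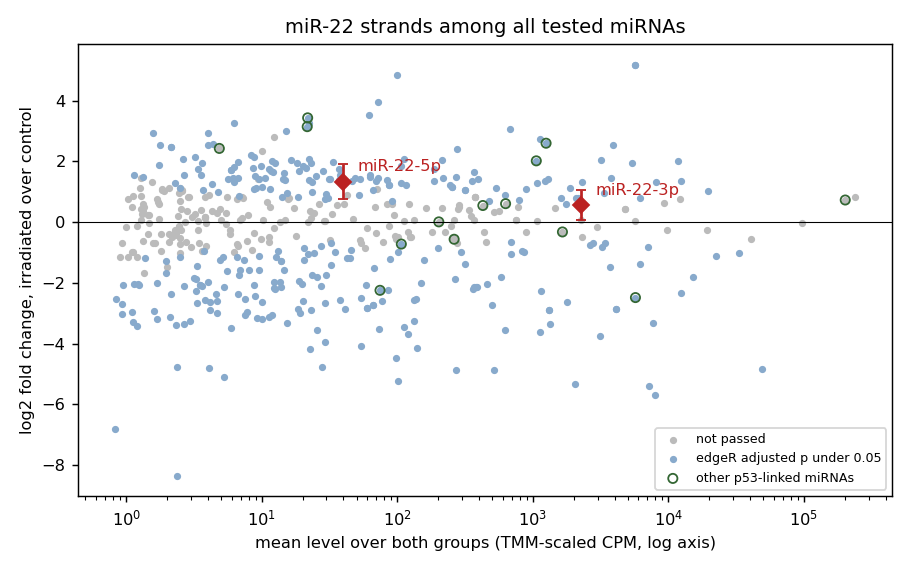
Log2 fold change of irradiated over control against mean level (TMM-scaled CPM, log axis) for the 519 tested miRNAs, with 1 point per miRNA, the miR-22 strands as diamonds with 95% intervals and the other p53-linked miRNAs circled. MiR-22-3p lies at 0.55 and miR-22-5p at 1.33, inside the spread of the other miRNAs.

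Both strands moved up in the order of abundance. By group mean, miR-22-3p was the 49th most abundant tested miRNA in control and the 34th in irradiated thymus, and miR-22-5p went from the 236th to the 175th. The neighbours of miR-22-3p in that order were not distinct from it. In control thymus miR-20a-5p, of the miR-17-92 cluster, lay just above (1917 ± 280 CPM) and miR-192-5p just below (1835 ± 318 CPM, SD, n = 3 each). In irradiated thymus miR-125b-5p lay just above (2744 ± 373 CPM) and the inflammation-linked miR-146b-5p just below (2647 ± 766 CPM, SD, n = 3 each). In each case the means differed by less than the SD of the neighbour.

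Without TMM scaling the separation of miR-22-3p was lost. Its counts were 13260, 19436 and 14790 in control replicates 1, 2 and 3, and 22310, 23621 and 22073 in irradiated replicates 1, 2 and 3. As a share of all miRNA counts this was 0.156%, 0.251% and 0.180% in control and 0.258%, 0.277% and 0.238% in irradiated libraries. Control replicate 2, the library with the highest TMM factor, thus lay above irradiated replicate 3. The mean share was 0.196% ± 0.0499 for control mice and 0.257% ± 0.0196 for irradiated mice (SD, n = 3 each, exact two-sided permutation p of 0.2). The smallest p that 3 against 3 libraries allow is 0.1. With library totals in place of TMM factors the log2 fold change was 0.397 for miR-22-3p and 1.21 for miR-22-5p, and the median over all tested miRNAs moved from 0.01 to −0.13.

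The shares of miR-22-5p stayed apart. They were 0.00192%, 0.00276% and 0.00249% in control replicates 1, 2 and 3, and 0.00471%, 0.00642% and 0.00542% in irradiated replicates 1, 2 and 3 (exact two-sided permutation p of 0.1). These shares rest on 164 to 213 counts per control library and 408 to 548 per irradiated library.

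The ratio of the strands within a library needs no scaling factor. There were 80.9, 91.2 and 72.1 counts of miR-22-3p for each count of miR-22-5p in control replicates 1, 2 and 3. In irradiated replicates 1, 2 and 3 there were 54.7, 43.1 and 43.9. The 3p strand was the more abundant in every library, by less in each irradiated mouse than in any control mouse. The mean ratio was 81.4 ± 9.56 for control mice and 47.2 ± 6.47 for irradiated mice (SD, n = 3 each, exact two-sided permutation p of 0.1, the smallest possible).

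Expressed as a share of the hairpin's reads, miR-22-5p made up 1.22%, 1.08% and 1.37% in control replicates 1, 2 and 3. The 95% Wilson intervals of these shares reached at most 1.57%. In irradiated replicates 1, 2 and 3 the share was 1.80%, 2.27% and 2.23%, with intervals that began at 1.63% or above. With no molecular identifiers in the reads, such intervals take each read as a separate draw. They leave out the spread between mice and are not a test between the groups.

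Across precursors the shift in strand ratio did not pass. The ratio was fitted with limma for all 146 miRNA names whose 3p and 5p strands were both tested. For miR-22 the log2 ratio of 3p to 5p went from 6.34 to 5.55, a change of −0.79 with a 95% interval of −1.43 to −0.14 (unadjusted limma p of 0.0229, adjusted p of 0.104). It stayed above the threshold under each of 10 alternatives, with adjusted p-values of 0.0597 to 0.288. Of the 146 ratios 16 passed, or 11.0%, and 39 had an unadjusted p under 0.05. That count depended on single libraries: 30 passed without irradiated replicate 1, 1 without control replicate 1 or without irradiated replicate 2, and 0 without control replicate 2, control replicate 3 or irradiated replicate 3, where 35, 33 and 37 had an unadjusted limma p under 0.05.

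Neither the size of the shift nor the strand preference of miR-22 stood outside the other precursors. A larger change of ratio, in either direction, was seen for 52 of the 146 (35.6%), and the median size was 0.56 on the log2 scale. A control ratio farther from equality was seen for 34 of them. For 30 precursors 1 strand was called higher and the other did not pass, as for miR-22. For 27 both were called higher and for 43 both lower.

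**Figure D3:**
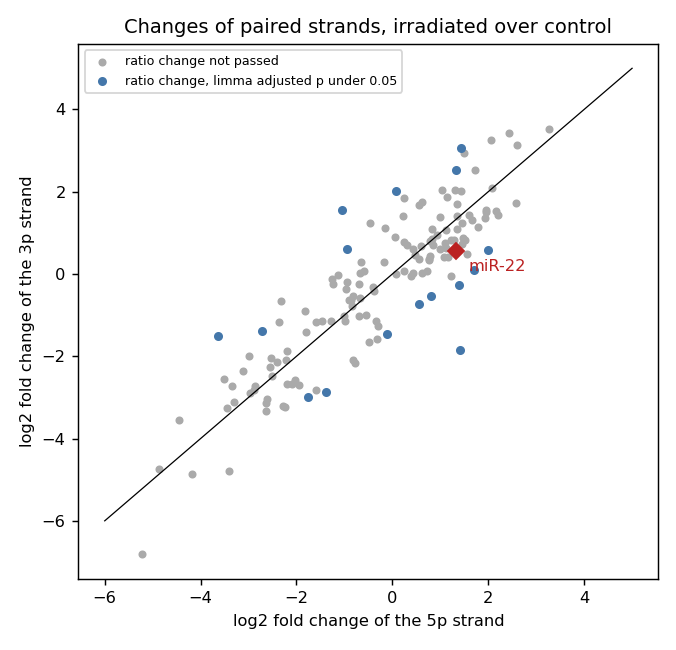
Log2 fold change of the 3p strand against that of the 5p strand for the 146 precursors with both strands tested, with 1 point per precursor, the line of equal change, and the 16 precursors whose ratio passed the limma test in blue. MiR-22, the red diamond, lies below the line, with 1.33 for 5p and 0.55 for 3p, among precursors that did not pass.

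The miRNAs most like each strand across the 6 libraries differed. Likeness was the root mean square difference between log2 CPM values, each centred on its mean over the 6 libraries, among 310 other miRNAs of at least 10 CPM. The nearest to miR-22-3p were miR-1843b-5p (0.071), miR-1843a-5p (0.095), miR-3074-5p (0.106), miR-24-3p (0.106) and miR-221-3p (0.138), against a median of 0.707. None of these 5 passed the edgeR test, and their log2 fold changes ran from 0.39 to 0.60. Likeness spans both groups, so a near miRNA has a similar fold change by the way it was chosen. MiR-24-3p, made from the miR-23, miR-27 and miR-24 clusters, was the most abundant of them, with 4070 ± 216 CPM in control mice and 5548 ± 1015 CPM in irradiated mice (SD, n = 3 each).

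Those 5 are not 5 separate measurements. MiR-3074-5p is encoded on the strand opposite miR-24-3p, shares 20 bases with its reverse complement, and the ratio of their counts was 1.0006 to 1.0014 in the 6 libraries, so the table does not tell them apart. MiR-1843a-5p and miR-1843b-5p share a run of 20 bases, but their counts were not equal, with a ratio of 1.49 to 1.66. The sequences are shown to make the overlap visible, again with bases 2 to 8 in capitals.
miR-24-3p: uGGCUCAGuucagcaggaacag
miR-3074-5p: gUUCCUGCugaacugagccagu
miR-1843a-5p: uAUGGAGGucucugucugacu
miR-1843b-5p: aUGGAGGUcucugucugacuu

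The nearest to miR-22-5p were miR-10b-5p (0.104), which is encoded in the Hoxd gene cluster, miR-125a-5p (0.116), miR-708-5p (0.136), miR-125b-2-3p (0.137) and miR-195a-5p (0.139), against a median of 0.845. All 5 were called higher, with log2 fold changes of 1.30 to 1.56, which again follows from how they were chosen. MiR-10b-5p, the most abundant, had 1949, 1951 and 2139 CPM in the control mice and 4840, 6264 and 5364 CPM in the irradiated mice, each in the order of replicates 1, 2 and 3. The 2 strands of miR-22 were farther from each other (0.416) than from these neighbours, and 64 miRNAs were closer to miR-22-3p than its own partner strand was.

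Other miRNAs with a known link to p53 had members called in both directions. Of 17 listed, 15 were in the table and 14 were tested: 4 were called higher, 3 lower and 7 did not pass. The background is 27.7% called higher and 33.5% lower, and the median log2 fold change of the list was 0.58 against 0.01 over all tested miRNAs. The members were picked with earlier results of these libraries known, so the counts are a description only. With upper-quartile factors the list gave 8 higher and 2 lower, miR-192-5p changed sign, and the median over all tested miRNAs was 0.44. The sign of miR-34a-5p, near 0, changed with library totals, with no low-count filter and with a minimum mean of 10 CPM. It also changed in limma-voom, with the replicate number as a block and without irradiated replicate 1.

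The members that rose were miR-34b-3p (3.44 on the log2 scale), miR-34c-3p (3.14) and miR-34c-5p (2.60), all from the p53 target locus Mir34b/c, and the epithelial miR-200c-3p (2.02). The members that fell were miR-16-5p (−2.48) and miR-15a-5p (−2.24), which restrain the cell cycle, and miR-107-3p (−0.72). Of the other members miR-34a-5p, the best-known p53 target miRNA, was at 0.01, miR-192-5p at −0.32, miR-194-5p at −0.56, miR-215-5p at 0.55, miR-143-3p at 0.73, miR-145a-5p at 0.61 and miR-34b-5p at 2.43, and none of these passed. MiR-107-3p was not called in 10 of 16 alternatives. These were the 3 other scalings, no low-count filter, DESeq2, the counts without miR-21a-5p, and leaving out any 1 of control replicates 1 and 3 and irradiated replicates 2 and 3. The other 6 members that passed were called in all 16. The remaining listed member in the table, miR-34a-3p, had 0 to 5 counts per library and was not tested.

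The miR-34c strands differed from miR-22 in their spread among irradiated mice. MiR-34c-5p was at 1865, 4050 and 527 CPM in irradiated replicates 1, 2 and 3, against 301 to 393 CPM in control. Replicate 2, the highest, also had the highest muscle sum. The other 2 did not follow that order. Replicate 3, the lowest for miR-34c-5p, had a muscle sum of 13397 CPM, and replicate 1 had one of 603 CPM. Both miR-22 strands differed less between those same mice. The highest value of miR-22-3p was in irradiated replicate 1, which had the lowest muscle sum of the irradiated libraries, and that of miR-22-5p in irradiated replicate 2, which had the highest. Without irradiated replicate 2 the log2 fold change of miR-22-5p was 1.44 (edgeR adjusted p of 0.0011). That fit still held irradiated replicate 3, with its muscle sum of 13397 CPM, so it cannot set muscle RNA aside. The part of muscle RNA in either strand was not tested.

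**Figure D4:**
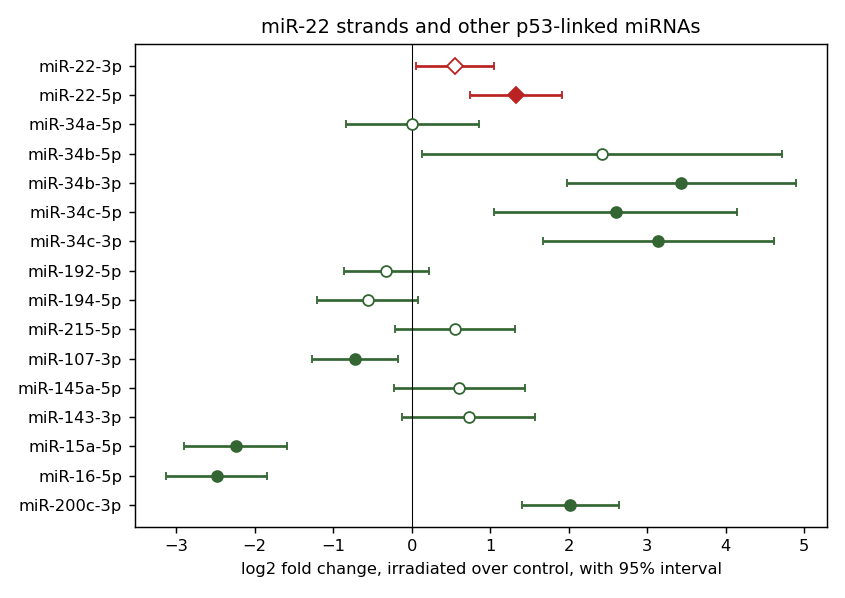
Log2 fold change of irradiated over control with 95% interval for the 2 miR-22 strands (diamonds) and the 14 tested miRNAs of the p53-linked list (circles), with filled symbols for an edgeR adjusted p under 0.05. The miR-22 intervals are narrower than those of the miR-34b and miR-34c strands, and the list has members on both sides of 0.

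Summed levels of the marker miRNAs of several cell types differed between the 2 groups. The lists were chosen with earlier results of these data known. The counts of called members below stand beside 27.7% called higher and 33.5% lower over all 519 tested miRNAs. The list for thymocytes held 6 miRNAs, all called lower and none at 0. Among them were both strands of miR-142a, which is made across blood cells. The sum of the 6 was 101229 to 168298 CPM in control and 6309 to 10291 CPM in irradiated libraries. The largest in control were miR-181a-5p (94375 CPM) and miR-128-3p (15623 CPM), both abundant in immature T cells. The endothelial sum (1 of 2 called higher) went from a range of 5058 to 5756 to one of 15676 to 24535 CPM. Its 2 members are the strands of miR-126a. The 3p strand was called higher (log2 fold change of 2.02), and the 5p strand, at 0.085, did not pass. The epithelial sum (4 of 6 higher) went from a range of 9683 to 12664 to one of 20191 to 27842 CPM. The fibroblast and smooth-muscle sum (4 of 6 higher) overlapped between groups, at 88843 to 238239 and 198206 to 308865 CPM. Most of that sum was miR-143-3p, at 84152 to 232297 CPM in control and 184424 to 295686 CPM in irradiated libraries. MiR-143-3p did not pass (edgeR adjusted p of 0.118). It, miR-145a-5p and the epithelial marker miR-200c-3p are also on the p53-linked list.

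The myeloid (1 of 3 higher), erythroid (2 of 3) and brown-fat (1 of 3) sums overlapped between groups, and all 3 tested striated-muscle miRNAs were called higher. No listed marker in the table was at 0 in all libraries. The rise of miR-22-5p (2.52-fold) and the difference in miR-22-3p (1.47-fold) stood beside these shifts, and the part of the shifts in them was not tested.

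In the authors' deposited table the log2 fold change of irradiated over control is 0.62 for miR-22-3p, with a p-value of 0.0407 and an adjusted p-value of 0.0838. The authors' deposited table gives 1.39 for miR-22-5p, with an adjusted p-value of 7.2e-05. It marks both strands as significant, and its mark is set for 373 miRNAs, the same 373 that have an unadjusted p-value under 0.05 in the authors' deposited table. Of these, 48 do not have an adjusted p-value under 0.05, miR-22-3p among them.

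**Figure D5:**
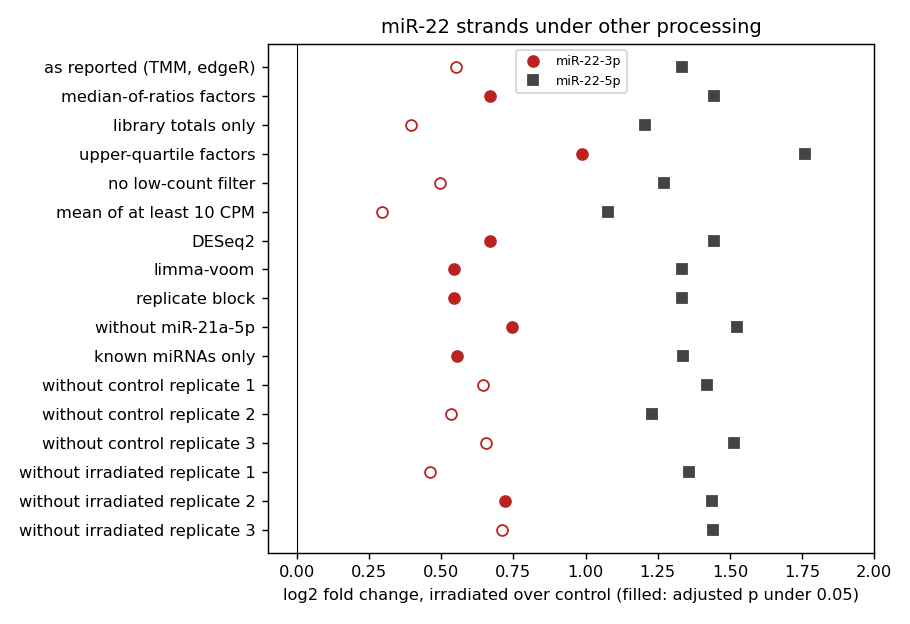
Log2 fold change of irradiated over control for miR-22-3p (circles) and miR-22-5p (squares) as reported and under 16 alternatives, with filled symbols for an adjusted p under 0.05. All values are above 0, from 0.30 to 0.99 for miR-22-3p and from 1.08 to 1.76 for miR-22-5p, and miR-22-5p is filled throughout.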

How the data were processed

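Small RNA of 6 thymuses was sequenced, and the labels name TRIzol extraction and NEBNext kits and call the molecule polyA RNA. Per the file headers, the deposited values are read counts per mature miRNA, in whole numbers. The table also holds the authors' TPM (count over library total, with no length term), which were checked and not tested, and the authors' log2 fold changes and p-values. The submitters' processing notes name DESeq2 1.10.1. The aligner, counting tool and build were not given in the sources used here. A further 6 count columns that no label describes were not used. Libraries held 7730641 to 9287017 counts, and no replicate pair agreed within sampling noise.

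The test of the counts was that of edgeR 4.0.16, run in R 4.3.3 (TMM factors, filterByExpr defaults, robust quasi-likelihood test, Benjamini-Hochberg adjustment over 519 miRNAs, threshold 0.05). Intervals of fold changes use the SE of that test. Strand ratios, log2 of counts plus 0.5, were fitted with limma 3.58.1 (robust eBayes) over 146 precursors, and log2 CPM for likeness used a prior count of 2. Shares were compared by exact permutation over libraries. Scripts were tested on simulated data. Alternatives were other scaling factors, DESeq2 1.42.0 or limma-voom as the test, no filter, a minimum mean of 10 CPM, a replicate block, leaving out miR-21a-5p or predicted miRNAs, and leaving out each library.

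The miRNAs named were both strands, the p53-linked list, the 5 nearest in pattern to each strand, the neighbours in level and the leading markers. The members and lists were chosen with earlier results of these data known.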

Additional observations from a re-analysis of the deposited data

How the results depend on the processing

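The 10 alternatives for the strand ratio and the 16 for miR-22-5p kept each value's direction and its side of the threshold. For miR-22-3p the direction held under all 16, and 8 took it past the threshold. Its log2 fold change was 0.67 with median-of-ratios factors (adjusted p of 0.0367), 0.99 with upper-quartile factors (0.0065), 0.67 in DESeq2 (0.0477), 0.55 in limma-voom (0.0486), 0.75 without miR-21a-5p (0.0198) and 0.56 with known miRNAs only (0.0490). Over all its alternatives the adjusted p ran from 0.0065 to 0.267, the latter with no low-count filter. Leaving out 1 library gave log2 fold changes of 0.46 to 0.72 for miR-22-3p and 1.23 to 1.51 for miR-22-5p. The log2 ratio of the mean shares of miR-22-3p, 0.40, ran from 0.26 to 0.65 over 8 alternatives.

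At a mean of at least 10 CPM 87 miRNAs in all were called higher in place of 144, and of the p53-linked list 5 were lower in place of 3. With upper-quartile factors 8 of that list were higher in place of 4. Upper-quartile factors made 59.7% of all calls higher and library totals 38.4%, against 45.3% with TMM factors. Leaving out 1 library, 0 to 30 strand ratios passed in place of 16, and the cause was not tested.

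With the replicate number as a block, the log2 fold change of miR-22-3p was 0.55 with an adjusted p of 0.0422, and 127 miRNAs were higher and 171 lower. The labels do not say that a number is shared. Deviations of same-numbered libraries correlated at 0.099, −0.024 and 0.230, and not every library correlated best with its own number.

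Depth limits miR-22-5p more than miR-22-3p, with 164 to 548 counts per library against 13260 to 23621.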
